A study of Homo sapiens with 3 samples.

Results

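Genes were compared between PANC-1 cells that stably expressed a mutant JMJD3 and PANC-1 cells that carried the empty vector. PANC-1 is an established human line derived from a pancreatic ductal adenocarcinoma. All the lines were made with the retroviral vector MSCV, the control with the vector alone and the others with wild-type or mutant JMJD3, and the labels name no further treatment. They state neither which mutation was used nor whether a line was a clone or a pool. Each line was read by 1 Affymetrix array, so the differences below could not be checked against replicates and are given as descriptions, without tests or p-values. Of 19775 genes with a single-symbol probe set, 12707 were measured, that is, over a floor of log2 5.48 (the pooled median signal) in the control array, the mutant array or both. A difference is the log2 signal of the mutant array minus that of the control array after values under the floor were raised to it. Each gene is represented by the probe set with the highest mean signal. The wild-type JMJD3 array is given beside it for reference, and both differences use the same control array.

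JMJD3 is the product of KDM6B and belongs to a small family of histone demethylases. These enzymes remove the repressive methyl mark that Polycomb repressive complex 2 places on histone H3, and they can also act on transcription through protein partners without using the catalytic domain. In epithelial and immune cells KDM6B is itself an inducible gene of stress and inflammatory responses. The labels give no measurement of the histone mark in these lines.

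Readings of the introduced gene disagreed among its 5 probe sets. KDM6B probe set 1556067_a_at read log2 5.53 in control, 6.73 in the wild-type line and 6.45 in the mutant line, and 1556066_at read 6.02, 6.75 and 6.51. The brightest probe set of KDM6B, 41387_r_at, read 7.60, 7.66 and 7.65, and 41386_i_at read 6.99, 6.99 and 6.88. The last one, 213146_at, lay under the floor at 5.12 in every array. Where these probes lie on the introduced sequence is not stated, and only the first 2 probe sets separate either JMJD3 line from control.

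Most markers of the labelled cell type read over the floor in both arrays. Of 8 ductal markers, 7 were over the floor in control and in mutant, and CFTR, the chloride channel of pancreatic ducts, was not. None of 4 acinar and none of 4 endocrine markers was over the floor. Of 4 immune markers 1 was (CD79A), of 4 endothelial markers 1 was (PECAM1), and of 6 fibroblast markers 3 were (COL1A1, PDGFRB and DCN). Among the ductal markers KRT18 (13.40), KRT8 (11.76), MUC1 (10.75) and KRT7 (9.66) were bright in control. KRT19 (5.55) and SOX9 (5.81) lay there close to the floor of 5.48, below CD79A (6.07) and PECAM1 (6.28). A reading over the floor alone therefore does not show that a gene was expressed. Of 2 erythroid markers HBB, a globin, was over the floor, at 7.53 in control, 10.71 in the wild-type line and 7.23 in the mutant line, and ALAS2 was not. In a bulk extract, a lower signal can come from fewer cells of a kind or from less RNA per cell, and these cannot be told apart here.

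The differences between mutant and control were uneven in direction. By 2-fold or more, 379 genes (2.98%) were higher with mutant JMJD3 and 68 (0.535%) were lower, so 84.8% of these differences were upward. Under 2-fold the balance was closer. By any amount 45.9% were higher, 41.2% were lower and 12.8% read the same, around a median of 0.00 and a mean of 0.07. These shares, with those at 2-fold, are the background for every count of list members below. With each array shifted to one median 58.8% were higher and 40.03% lower, and with quantile normalization 42.8% were higher and 54.4% lower. The excess on the upward side grew with the size of the difference, from 1208 against 429 genes at 1.5-fold to 35 against 1 at 4-fold. For 53 of the 379 higher genes control was at or under the floor, so their folds are lower bounds, and the same held for mutant in 2 of the 68 lower genes. Among the 12244 genes over the floor in both arrays, 326 (2.66%) were higher and 66 (0.539%) were lower. With wild-type JMJD3, read against the same control, 121 of 12697 genes were higher and 166 lower by 2-fold. Of the genes measured here, 12537 were over the floor in control or wild-type. By any amount 6747 of these were higher with wild-type and 4348 lower, with a median of 0.05.

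**Figure D1:**
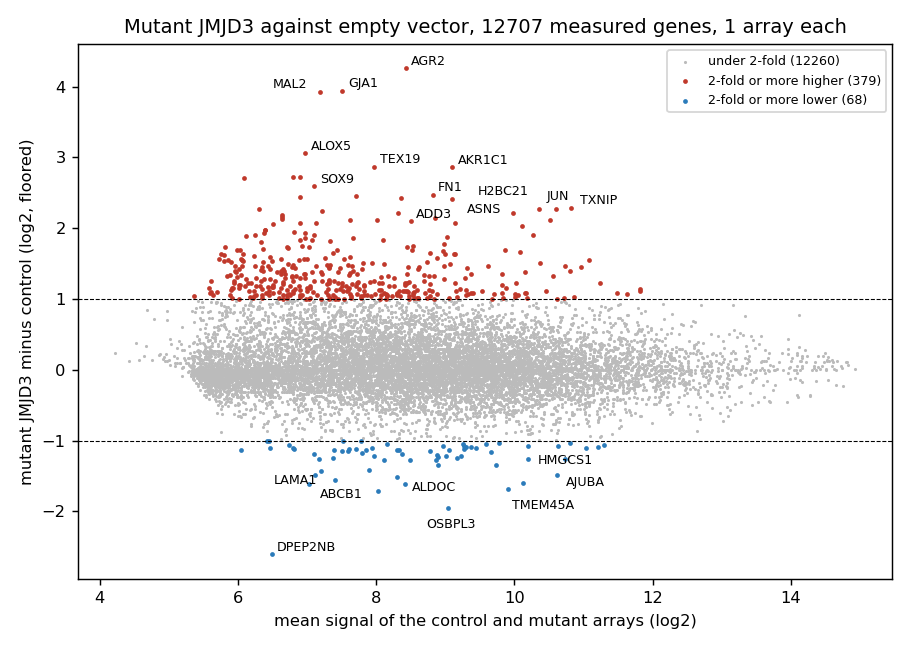
Each point is 1 of the 12707 measured genes, with the mean signal of the control and mutant arrays on the horizontal axis (log2) and the floored difference on the vertical axis (log2). Dashed lines mark 2-fold, red points are the 379 higher genes and blue points the 68 lower ones. The red points reach 4.26 (AGR2), while the blue ones reach -2.61 (DPEP2NB).

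Upward differences were concentrated at low and middle signal. When the measured genes were ordered by mean signal and divided into 10 classes, 6.48% of the third class, between log2 6.50 and 7.15, were higher by 2-fold or more and 0.474% were lower. In the brightest class, from 10.93 upward, these shares were 0.551% and 0.236%. The seventh class had the largest share of lower genes, at 1.17%, with 2.11% higher. In the dimmest class no gene was lower by 2-fold and 1.56% were higher.

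**Figure D2:**
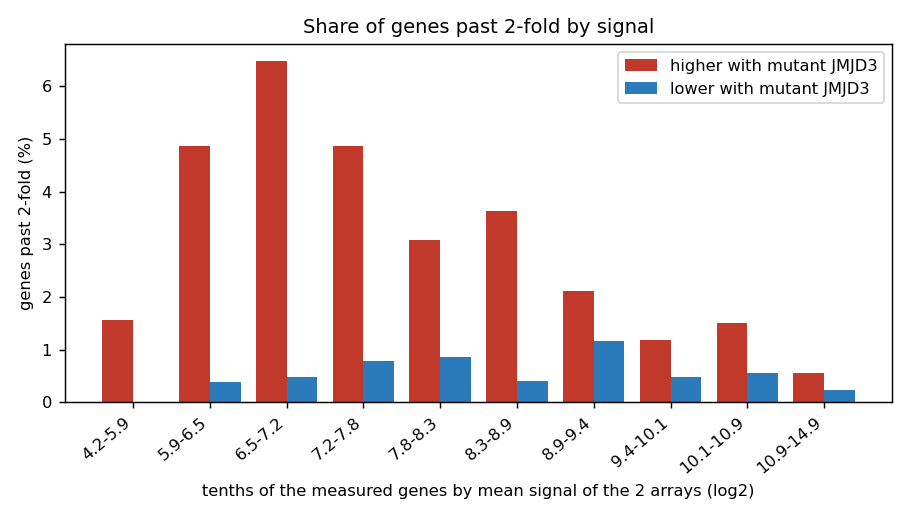
Bars show the percent of genes that were 2-fold or more higher (red) or lower (blue) with mutant JMJD3 in each of 10 equal classes of the measured genes, ordered by mean signal (log2 range on the axis). The red bars are tallest in the third class (6.48%) and shortest in the brightest (0.551%), and they exceed the blue bars in every class.

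Probe sets of the same gene give the only repeat reading in these data. A second measured probe set or more existed for 146 of the 379 higher genes. Of these 235 readings 75.3% were higher too, 28.9% by 2-fold, while 12.8% were lower. For 35 of the lower genes there were 62 such readings, of which 83.9% were lower and 8.06% higher. Among 3721 pairs of bright probe sets of one gene, the differences disagreed by a median of 0.19 and by 0.87 at the 95th percentile (SD 0.40). These pairs were over log2 7.59 in both arrays, and a 2-fold difference (1 on the log2 scale) is slightly larger than their 95th percentile. The gap was not measured for dimmer probe sets, and the largest share of higher genes (6.48%) lay lower, between log2 6.50 and 7.15.

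The largest differences fell on genes of several kinds. AGR2, a disulfide isomerase of the secretory epithelium, read log2 6.30 in control, 9.71 in the wild-type line and 10.56 in the mutant line, a 19.2-fold difference between mutant and control. Its second probe set read 5.62, 5.88 and 6.99. GJA1, the gap junction protein connexin 43, read 5.54 in control, 6.13 in the wild-type line and 9.48 in the mutant line, so only the mutant array was bright. TEX19, a germline gene, read 6.54, 7.48 and 9.41 (7.31-fold between mutant and control), and SPINK13, a protease inhibitor, read 7.89, 7.91 and 10.31 (5.35-fold). The lipid flippase ATP8A1 read 6.95, 6.65 and 9.07, although the median over its 3 probe sets was 0.00. FN1, fibronectin, was higher by 2.47 to 3.11 on the log2 scale in each of its 4 measured probe sets, which all carry shared sequence, and its other 3 lay under the floor.

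Genes that control did not show above the floor gave lower bounds. PI15, a peptidase inhibitor, read 3.97 in control, 3.80 in the wild-type line and 8.19 in the mutant line, at least 6.54-fold higher, while its other probe set lay under the floor in every array. ZEB1-AS1, the RNA opposite ZEB1, read 4.85, 5.25 and 7.75 (at least 4.82-fold). NNMT, which methylates nicotinamide, read 5.33, 7.0 and 7.45 (at least 3.92-fold), and PDGFC, a growth factor of the PDGF family, read 5.33, 6.11 and 7.41 (at least 3.81-fold). For NNMT and PDGFC the wild-type array was over the floor as well, while for PI15 it was not. With the median over probe sets NNMT differed by 0.31, PDGFC by 0.96 and PI15 by 1.36.

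The lower genes were fewer and their differences smaller. DPEP2NB read 8.09 in control, 5.32 in the wild-type line and 4.88 in the mutant line, at least 6.11-fold lower, and was the only gene past 4-fold on that side. OSBPL3, an oxysterol-binding protein, read 10.01, 9.09 and 8.06, but its second probe set read 9.15, 8.26 and 9.23, so the probe sets disagree by more than the difference itself. TMEM45A read 10.75, 10.25 and 9.07 (3.20-fold lower) and has no other probe set. ND6, a complex I subunit encoded in mitochondrial DNA, read 10.41, 10.03 and 9.07 (2.53-fold lower). AXIN2, a feedback inhibitor of Wnt signalling, read 9.62, 9.59 and 8.40 (2.33-fold lower), but the median over its 4 probe sets was -0.20. TNFRSF12A, the receptor for TWEAK, read 9.83, 10.28 and 8.61, and SERPINI1, neuroserpin, 9.51, 8.55 and 8.28. For SERPINI1 both JMJD3 arrays were below control, whereas for TNFRSF12A the wild-type array was above it.

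Replication-dependent histone genes were higher with mutant JMJD3 across the core classes. These genes lie in clusters, are transcribed in S phase and supply the histones that package newly made DNA. The promoters of the H2B genes, and of the H2A genes that often share a promoter with them, carry an octamer element bound by POU factors. The sequences of the H2B genes with the largest differences show it, taken from RefSeq on GRCh38.p14 as the 150 bases before the annotated start, 5′ to 3′ on the gene's strand, with the octamer in capitals. H2BC21 lies at chr1:149886683-149886832 on the minus strand and H2BC4 at chr6:26123927-26124076 on the minus strand.
H2BC21: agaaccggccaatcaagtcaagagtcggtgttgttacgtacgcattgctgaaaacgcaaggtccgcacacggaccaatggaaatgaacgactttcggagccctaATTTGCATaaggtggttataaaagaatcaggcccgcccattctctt
H2BC4: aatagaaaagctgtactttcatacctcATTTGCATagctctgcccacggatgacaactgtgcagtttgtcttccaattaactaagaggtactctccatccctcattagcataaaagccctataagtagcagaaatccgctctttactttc
The octamer ATTTGCAT, searched on both strands in the 250 bases before the start, was found in 14 of 18 H2B and 11 of 16 H2A promoters, against 1.66% of 27305 promoters. A match is a run of letters and not a measured binding site.

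All 7 measured H2A genes were higher, 4 by 2-fold or more, with a median of 1.11. H2AC8 read 8.10 in control, 8.18 in the wild-type line and 10.17 in the mutant line (4.20-fold between mutant and control). H2AC17 read 7.73, 7.79 and 9.18, and H2AC6 read 9.15, 9.11 and 10.50. In each of these the control and wild-type arrays were within 0.08 of each other and the mutant array stood above both. Of 9 measured H2B genes 8 were higher and 2 passed 2-fold, with a median of 0.64. H2BC21 read 9.22, 8.82 and 11.49 (4.82-fold), and H2BC4 read 6.56, 5.68 and 8.68 (4.35-fold). Of 9 H3 and H4 genes 8 were higher, with a median of 0.36, and H3C2 passed 2-fold at 5.51, 5.40 and 6.97. The linker histone H1-2 read 10.62, 10.55 and 11.85 (2.35-fold), and all 4 measured H1 genes were higher. With wild-type JMJD3 the medians of these classes lay between -0.15 (H2B) and 0.06 (H2A and H1). Replication-independent histones, which are made throughout the cycle, had 5 of 8 higher, none by 2-fold, and a median of 0.05. Among them H2AJ counted at 0.63 from its brightest probe set, but its 4 probe sets differed by 0.63 to 1.68.

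Histone genes are near copies of each other, and many of their probe sets carry shared sequence, so a value can include several genes. Without shared probe sets the H2A median was 1.11 over 5 genes and the H2B median was 0.12 over 5. H3C2 was under 2-fold under a 60th percentile floor (0.80) and with an offset replacing the floor (0.91). Most replication-dependent histone mRNAs end in a stem-loop without a poly(A) tail, and how far the labelling reached them is not stated. Most other DNA replication genes were not higher. Of 30 in that list 5 were higher and 20 lower, none by 2-fold, with a median of -0.08. RRM2, a subunit of ribonucleotide reductase, was the lowest at 12.32 in control, 12.09 in the wild-type line and 11.89 in the mutant line. CDT1 was the highest at 9.97, 10.56 and 10.38. Of 30 mitosis genes 14 were higher and 15 lower, with a median of -0.03.

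The main histone cluster led when genes were ordered by chromosome position. Apart from HFE its run is made of the histone genes already described, so it repeats those readings and is not a separate result. Of 12359 runs of 15 neighbouring measured genes, the run from H1-2 to H3C8 had the highest median, 0.64, where the 5th and 95th percentile of all runs were -0.12 and 0.25. Of its 15 genes 13 were higher, 4 by 2-fold, and only HFE, the iron regulator that lies inside the cluster, was lower (9.48, 9.83 and 9.10). The run median with wild-type JMJD3 was -0.03.

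**Figure D3:**
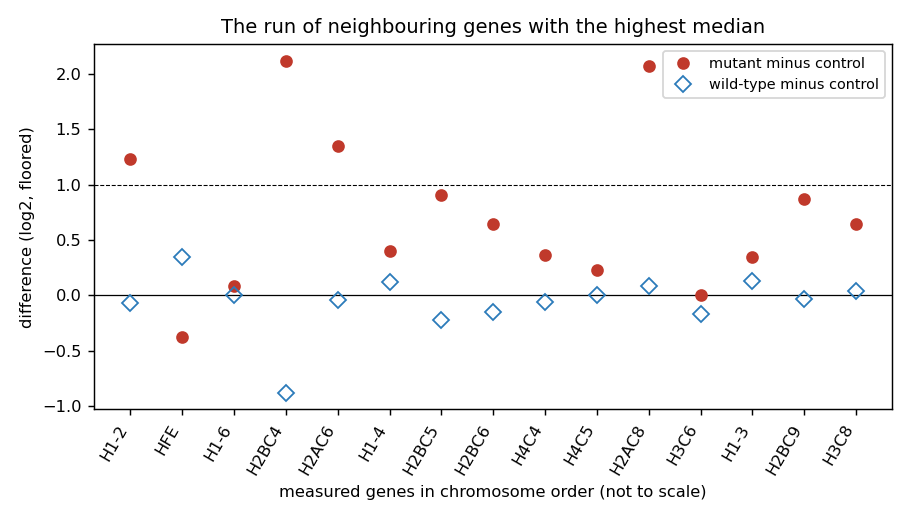
Differences from control (log2, floored) are shown for the 15 measured genes from H1-2 to H3C8 in chromosome order, with spacing not to scale, red circles for mutant and blue diamonds for wild-type JMJD3. H1-2, H2BC4, H2AC6 and H2AC8 lie above the dashed 2-fold line with mutant, HFE lies at -0.38, and H2BC4 is at -0.88 with wild-type.

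The proteasome list was lower, and more evenly so. The proteasome degrades ubiquitin-tagged proteins in a core of alpha and beta subunits capped by a regulatory particle of ATPases (PSMC) and other subunits (PSMD). Of 27 measured subunits 26 were lower with mutant JMJD3, against 41.2% of all measured genes, with a median of -0.45 and a range of -0.99 to 0.17. None reached 2-fold. PSMD2, a scaffold of the regulatory particle, read 11.87 in control, 12.03 in the wild-type line and 10.96 in the mutant line (1.88-fold lower), and PSMD3 read 10.09, 10.17 and 9.29 (1.74-fold). The core subunit PSMB6 read 11.89, 11.88 and 11.18, and the ATPase PSMC3 read 11.39, 11.58 and 10.69. In all 4 the mutant array was the lowest and the other arrays lay within 0.19 of each other. PSMD11 read 11.10, 10.87 and 10.11 (1.99-fold lower), but its dimmer probe set 208776_at read 8.01, 7.55 and 8.13. The one exception, named after its value was seen, was PSMC4 at 10.54, 11.36 and 10.71. With wild-type JMJD3 16 of 27 were higher and 10 lower, with a median of 0.03. Without shared probe sets 17 of 21 subunits were lower, 3 were higher and the median was -0.29.

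The inducible subunits of the immunoproteasome, which replace core subunits in cells that present antigen, differed in direction. PSMB9 read 6.15 in control, 6.15 in the wild-type line and 7.98 in the mutant line (3.56-fold higher), and PSMB8 read 7.21, 7.23 and 7.77 (1.47-fold higher). PSMB10, the remaining inducible subunit, was lower like most of the proteasome list (8.21, 8.80 and 7.81). PSMB9, PSMB8 and PSMB10 belong to a class I antigen presentation list in which 10 of 15 were higher, 2 lower and 1 past 2-fold, with a median of 0.18. Its regulator NLRC5 read 6.11, 6.64 and 7.06, and HLA-B 10.63, 10.49 and 11.17. Among class II genes HLA-DMB, a peptide exchange factor, read 9.46, 10.34 and 11.57 (4.32-fold higher), and its partner HLA-DMA read 7.26, 8.07 and 8.09. Of 23 interferon-stimulated genes 15 were higher and 6 lower, against 45.9% and 41.2% of all measured genes, with a median of 0.13. They ranged from IFITM1 at 6.48, 7.46 and 8.93 to BST2, a viral tether, at 9.59, 9.35 and 8.63.

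**Figure D4:**
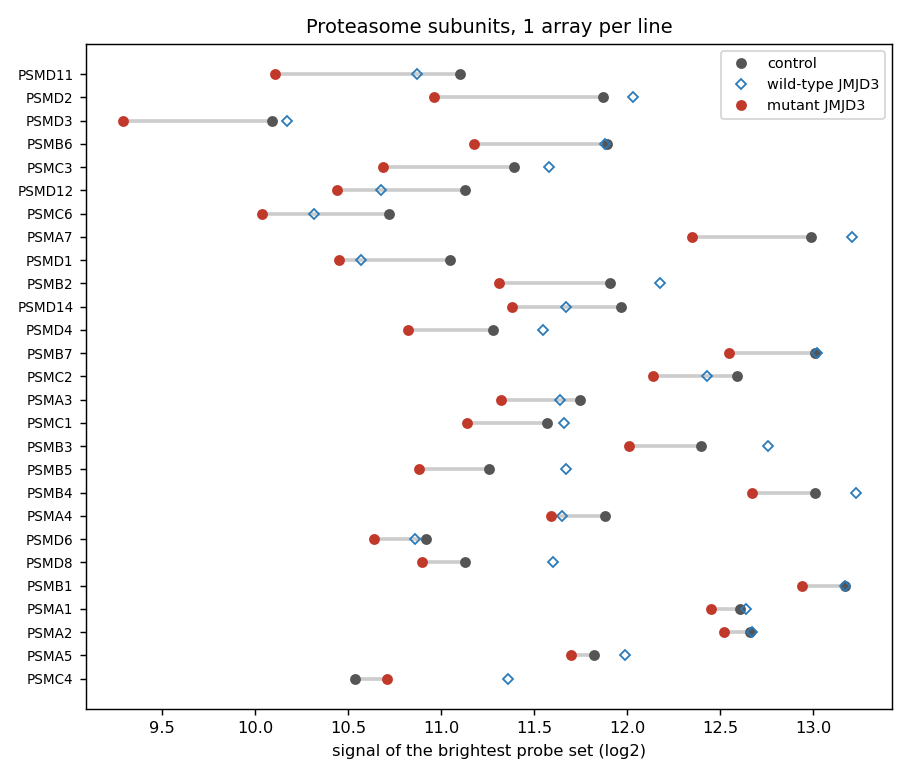
Signals of the brightest probe set (log2) are shown for 27 proteasome subunits, ordered by difference, with grey circles for control, red for mutant JMJD3 and open blue diamonds for wild-type JMJD3, 1 array each. Red lies to the left of grey in 26 rows, and PSMC4 at the bottom is the exception.

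Genes of sterol and glucose metabolism were lower. Cholesterol is made from acetyl-CoA by a pathway under the transcription factor SREBP2. Of 20 measured members of that list 19 were lower, 5 by 2-fold or more, with a median of -0.58, against -0.57 over the 19 members above the floor in both arrays. The entry enzymes were among the lowest, ACAT2 at 9.80 in control, 9.88 in the wild-type line and 8.55 in the mutant line and HMGCS1 at 10.83, 9.83 and 9.57. EBP, a sterol isomerase, read 11.32, 11.58 and 10.29, and its other 3 probe sets differed by -0.16 to -0.81, all under 2-fold. For HMGCS1 the wild-type array was also well below control, while for ACAT2 and EBP it was not. GGPS1, which makes the geranylgeranyl group, was the exception at 9.42, 9.01 and 9.64, named after its value was seen. The list median was 0.04 with wild-type JMJD3. Of the sterol export list 2 of 8 passed 2-fold upward, ABCA1 (6.59, 4.79 and 8.07) and ABCG1 (5.37, 5.72 and 8.21), with a list median of 0.17. With the median over probe sets 1 of 8 passed 2-fold, ABCA1 was 0.74 and ABCG1 1.29, and ABCG1 was 1.22 without shared probe sets. The sterol element core TCACNCCAC was found upstream of 1 of 19 promoters of the synthesis list, against 0.875% of all promoters.

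Of 21 glycolysis and glucose uptake genes 18 were lower, 4 by 2-fold, with a median of -0.41 and 0.20 with wild-type JMJD3. The brain-type aldolase ALDOC read 9.22 in control, 9.18 in the wild-type line and 7.61 in the mutant line, and the glucose transporter SLC2A3 read 9.13, 9.62 and 7.85. The abundant enzymes were lower by less, such as ENO1 at 13.43, 13.48 and 12.95 and PGK1 at 13.90, 13.92 and 13.46. SLC2A1 rests on a shared probe set (8.27, 8.80 and 7.15), was -0.92 with an offset replacing the floor, and its other probe set lay under the floor. PFKFB4, which sets the level of a glycolytic activator, was -0.71 with the median over its 2 probe sets. The hypoxia list, which shares SLC2A1 and PFKFB4 with this one, had 10 of 23 higher and 13 lower with a median of -0.11, and 0.03 without shared probe sets. ACGTG, the core of the hypoxia element, was found in 8 of 21 glycolysis and 11 of 20 hypoxia promoters, against 18.7% of all. The citric acid cycle (median -0.06 over 21 genes) and the pentose phosphate pathway (0.20 over 6) had no gene past 2-fold.

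Targets of MondoA, a glucose-sensing transcription factor, were higher by 2-fold. The short list held 3 targets (TXNIP, ARRDC4 and KLF10, which is also in the immediate early and Krüppel-like lists) and the 3 factors MLXIP (MondoA itself), MLXIPL (ChREBP) and their partner MLX. All 6 were higher, with a median of 0.67. The 3 targets were past 2-fold, while MLXIP differed by 0.18, MLX by 0.23 and MLXIPL by 0.25. TXNIP, an arrestin that removes glucose transporters from the surface, read 9.67 in control, 9.27 in the wild-type line and 11.96 in the mutant line (4.89-fold), and its other probe sets differed by 1.77 and 1.93. ARRDC4 read 8.08, 7.28 and 9.96 (3.68-fold). For both the wild-type array was below control. The list median was 0.18 without shared probe sets, where TXNIP has no value. CACGTG was found in 2 of 5 promoters of the list, those of the target ARRDC4 and the factor MLX. The share was 6.49% of all promoters and 8.81% of those of measured genes.

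The amino acid response had higher members led by ASNS. ATF4 is translated when amino acids or the unfolded protein sensors signal stress, and it switches on amino acid synthesis, transport and tRNA charging. Of 24 measured genes of that list 17 were higher and 6 lower, 2 past 2-fold, with a median of 0.44, and 0.36 over the 23 members above the floor in both arrays. ASNS, asparagine synthetase, read 8.88 in control, 9.87 in the wild-type line and 11.09 in the mutant line (4.63-fold higher), in a shared probe set whose only companion lay under the floor. ALDH1L2, a mitochondrial folate enzyme, read 5.37, 4.57 and 7.29 (at least 3.51-fold), and its median over 3 probe sets was 0.00. ATF4 itself read 12.25, 12.57 and 12.87, and CHAC1, which degrades glutathione, read 6.43, 6.70 and 7.06. The amino acid transporter subunits SLC3A2 (11.14, 11.44 and 10.45) and SLC7A5 (12.47, 12.76 and 11.97) were lower, and DDIT3 read 9.02 in every array. Of 17 aminoacyl-tRNA synthetases 8 were higher and 9 lower, with a median of -0.01, and of 19 unfolded protein response genes 7 were higher and 10 lower. The list median with wild-type JMJD3 was 0.29.

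The promoter of ASNS is shown because its composite element is the classical binding site of ATF4 with a C/EBP partner. It lies at chr7:97872409-97872558 on the minus strand of GRCh38.p14 (RefSeq, the 150 bases before the start), with the match in capitals.
ASNS: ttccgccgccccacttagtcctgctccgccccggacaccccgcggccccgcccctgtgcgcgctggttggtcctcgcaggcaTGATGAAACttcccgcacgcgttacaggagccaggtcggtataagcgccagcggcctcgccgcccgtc
The element TGATGNAAN was found on either strand in the 250 bases upstream of 3 of 19 promoters of the list (ASNS, CHAC1 and ATF3). The share was 3.18% of all promoters and 1.49% of those of measured genes.

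Most immediate early and Krüppel-like factor genes were higher, in lists that share KLF2, KLF4, KLF6 and KLF10. Immediate early genes are transcribed within minutes of a stimulus, and Krüppel-like factors are zinc finger regulators of growth and differentiation. Of 22 immediate early genes 19 were higher, 4 by 2-fold, with a median of 0.60, and 0.37 with wild-type JMJD3. JUN, a subunit of AP-1, read 9.46 in control, 9.93 in the wild-type line and 11.73 in the mutant line (4.82-fold), and its other 3 probe sets differed by 1.75 to 3.19. Its partner FOS read 11.80, 11.92 and 12.52, and EGR1 read 13.36, 12.92 and 13.73. Of 13 Krüppel-like factors 11 were higher, 4 by 2-fold, with a median of 0.43 and 0.05 with wild-type. KLF2, KLF6 and KLF10 are 3 of the 4 genes past 2-fold in each list, beside JUN in the first and KLF9 in the second. KLF2 read 8.09, 8.44 and 9.87, but its other probe set read 6.03, 6.01 and 6.01. KLF9 read 8.32, 8.59 and 9.96, with a median over 5 probe sets of 0.77. KLF10 read 9.61, 9.56 and 10.70 from its only probe set, and KLF6 read 8.01, 8.44 and 9.06 with a median over 5 probe sets of 0.28. The AP-1 element TGANTCA was found in 0 of 18 immediate early promoters, against 6.60% of all and 3.89% of those of measured genes. Of 19 FOXO targets 14 were higher with a median of 0.29, and 0.07 with the median over probe sets. SESN3, a sestrin, read 5.70, 6.54 and 7.16, and its median over 7 probe sets was 0.00.

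Inflammatory genes differed in a few members. Of 15 measured chemokines and cytokines 9 were higher, 4 by 2-fold, and 5 lower, with a median of 0.19. Over all measured genes these shares were 45.9%, 2.98% and 41.2%. CXCL1 read 5.12 in control, 5.76 in the wild-type line and 7.38 in the mutant line (at least 3.73-fold higher), and CCL2 4.89, 6.25 and 7.17 (at least 3.23-fold). CXCL2 read 6.13, 6.16 and 7.44, was 0.93 with an offset replacing the floor, and its other 2 probe sets lay under the floor. CXCL8 read 4.40, 4.40 and 7.04 (at least 2.95-fold), and was 0.87 under a 60th percentile floor. Control was at or under the floor for CXCL1, CCL2 and CXCL8, and over the 10 members above it in both arrays the list median was -0.02. NF-kB subunits and feedback genes had 8 of 12 higher and 2 lower with a median of 0.10, from NFKBIZ (10.34, 9.46 and 11.37) to the subunit NFKB1 (8.52, 8.82 and 7.96). PTGS2, the inducible cyclooxygenase, read 8.97, 8.13 and 10.09, and PTGES, which makes prostaglandin E from its product, read 6.25, 6.80 and 7.34. Those genes, ALOX5 and the prostaglandin carrier SLCO2A1 were the 4 of 13 eicosanoid genes past 2-fold, around a list median of 0.00. PTGES (0.78) and SLCO2A1 (0.75) were under 2-fold with the offset, and ALOX5 was 0.02 with the median over its 4 probe sets.

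The promoters of CXCL1 and CXCL2 are shown because these neighbouring genes share a kappaB element, the binding site of NF-kB, printed in capitals. The windows are the 150 bases before the start in RefSeq on GRCh38.p14, at chr4:73869243-73869392 on the plus strand for CXCL1 and chr4:74099196-74099345 on the minus strand for CXCL2.
CXCL1: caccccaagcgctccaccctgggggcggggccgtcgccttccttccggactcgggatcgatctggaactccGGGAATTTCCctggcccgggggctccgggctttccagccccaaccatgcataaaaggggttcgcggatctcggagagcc
CXCL2: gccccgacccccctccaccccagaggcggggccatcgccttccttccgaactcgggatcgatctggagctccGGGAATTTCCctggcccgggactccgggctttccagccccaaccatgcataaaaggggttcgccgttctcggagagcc
The element (GGG, any pair of bases, then TTTCC) was found on either strand in the 250 bases upstream of 7 of 17 promoters of the chemokine list, against 1.73% of all promoters.

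Redox genes showed no common direction. Of 22 NRF2 targets 14 were higher and 8 lower, with a median of 0.18. AKR1C1 (7.67 in control, 8.28 in the wild-type line and 10.53 in the mutant line) and AKR1C2 (7.14, 7.90 and 9.57) were the 2 past 2-fold. Both are near copies read by shared probe sets and are uncertain as separate values. AKR1C3 read 11.69, 12.43 and 12.62. GCLC, which makes the first step of glutathione synthesis, was lower (11.06, 10.67 and 10.17). The antioxidant element core TGACNNNGC was found in 4 of 17 NRF2 target promoters, 1 of 10 aldo-keto reductase promoters and 3 of 26 proteasome promoters, against 11.03% of all.

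Lineage and surface genes differed in direction within their lists. Of 9 measured ductal and pancreatic transcription factors 7 were higher with a median of 0.45, led by SOX9, a ductal and progenitor factor, at 5.81 in control, 7.59 in the wild-type line and 8.40 in the mutant line. Its other probe set read 5.20, 6.59 and 7.23. ISL1 read 7.13, 7.48 and 8.15 and was 0.96 with quantile normalization. Of 17 mesenchymal genes 12 were higher with a median of 0.36, and 0.00 with the median over probe sets. Of 19 epithelial genes 10 were higher and 8 lower around a median of 0.03, which was 0.00 with quantile normalization. The simple keratins differed in direction, with KRT19 at 5.55, 8.0 and 7.73, KRT8 at 11.76, 11.97 and 10.67 and KRT18 at 13.40, 13.47 and 12.83. KRT8 and KRT18 encode a keratin pair, and in both genes the mutant array was the lowest. For KRT19 both JMJD3 arrays were above control. The protease inhibitor SPINT2 (6.74, 9.03 and 8.60) and the small GTPase RAB31 (7.21, 9.34 and 9.42) likewise had both JMJD3 arrays above control, within 0.43 of each other. Of 36 RAB genes 23 were higher and 8 lower with a median of 0.17, and only RAB31 passed 2-fold.

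HOX clusters differed from each other. HOX genes are targets of Polycomb, and their clusters set position along the body axis. All 9 measured HOXB genes were higher with mutant JMJD3, with a median of 0.50, and all 9 were higher with wild-type JMJD3, with a median of 0.35. HOXB9 read 6.63 in control, 7.21 in the wild-type line and 7.36 in the mutant line, and HOXB3 read 8.17, 8.47 and 8.87. HOXB8 (5.6, 6.07 and 7.12) and HOXB6 (5.78, 6.67 and 6.92) passed 2-fold, but not under a 60th percentile floor (0.95 and 0.75). Both rest on a shared probe set. The other probe set of each lay under the floor in control and mutant, so without shared probe sets neither gene differed. Of 7 HOXC genes 6 were higher with a median of 0.11, and of 4 HOXD genes 1 was higher and 2 lower. The only HOXA gene on the array with a probe set of its own was not measured.

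Chromatin regulators themselves differed by less than 2-fold. The 15 demethylases and Polycomb repressive complex 2 genes of the mark that JMJD3 removes had 7 higher and 6 lower and a median of 0.00, from PHF19 (9.91, 10.16 and 9.48) to EZH1 (7.68, 7.73 and 8.17). Of 34 histone methyltransferases 24 were lower and 7 higher with a median of -0.15, such as SETDB2 (9.13, 7.79 and 8.41). The probe sets of NSD2 and KMT5B disagreed in direction. The brightest of NSD2 read 9.90, 9.86 and 9.26, but 3 of its 6 measured probe sets were higher and 2 lower, and its difference was 0.29 without shared probe sets. KMT5B read 9.49, 8.73 and 8.83, and was 0.20 without shared probe sets. Of 13 DNA methylation genes 9 were lower with a median of -0.23, DNMT1 among them (11.26, 11.22 and 10.78). Of 21 SWI/SNF genes 14 were lower with a median of -0.09, and of 17 Polycomb repressive complex 1 genes 11 were higher with a median of 0.07. WDR5, a subunit shared by the methyltransferase complexes that can hold KDM6 proteins, read 9.83, 9.98 and 9.02. That reading is from a shared probe set, and the other measured probe set of WDR5 differed by 0.00.

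Cytosolic ribosomal protein genes formed a narrow group. Of 49 measured genes 46 were higher with mutant JMJD3, none was lower and 3 read the same, with a median of 0.11 and a highest difference of 0.48 (RPL34, 13.33 in control, 13.41 in the wild-type line and 13.81 in the mutant line). RPS29 read 13.24, 13.36 and 13.66. With quantile normalization 40 were higher and 9 lower, so the count depends on the normalization. Over all measured genes the share that was lower also rose, from 41.2% to 54.4%. Ribosome biogenesis genes had 5 of 19 higher and 13 lower with a median of -0.16. Respiratory chain subunits were divided, with 13 of 33 complex I genes higher and 18 lower and a median of -0.01. With wild-type JMJD3 31 of 33 were higher with a median of 0.27, against 0.05 over all measured genes. NDUFB2 was the lowest of them with mutant (11.71, 11.97 and 10.76). The lysosome list had a median of -0.05 with mutant and 0.47 with wild-type, each over 26 genes.

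**Figure D5:**
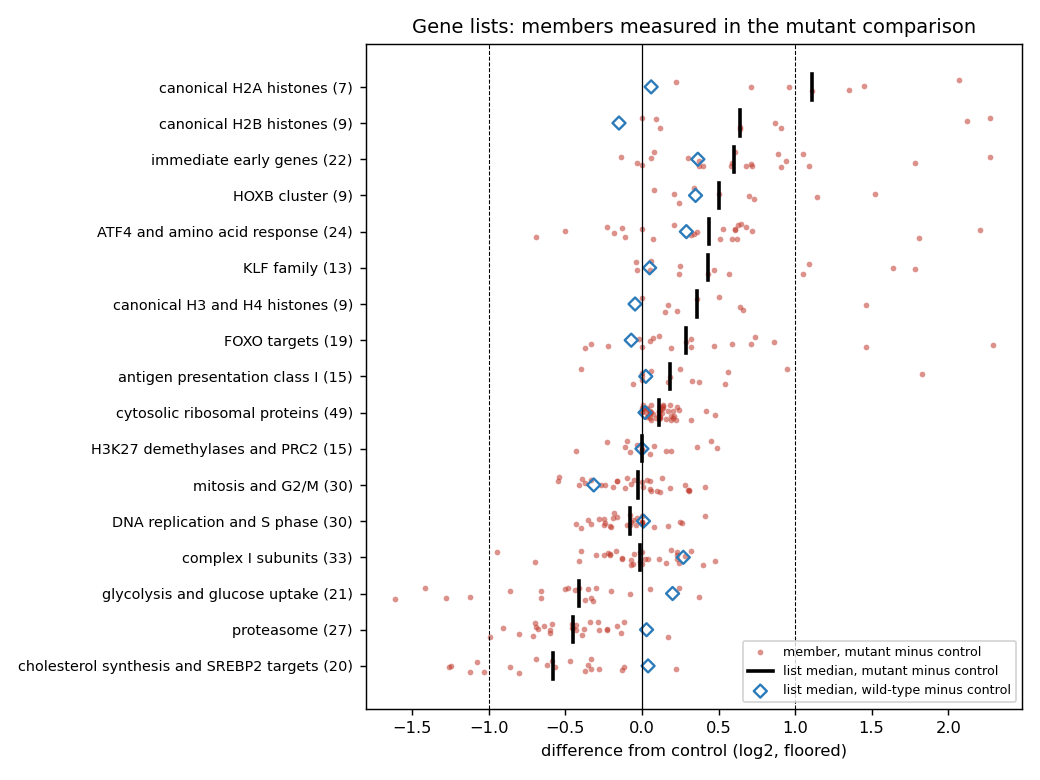
Red points are the members of 17 lists measured in the mutant comparison (number in brackets), black bars their median difference from control (log2, floored), and open blue diamonds the list median with wild-type JMJD3. The black bars run from 1.11 (H2A histones) to -0.58 (cholesterol synthesis), and the dashed lines mark 2-fold.

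Most families of related symbols had a median near 0. Of 155 families that share the letters at the start of their symbols and have at least 10 measured members, 107 had medians within 0.1 of 0, and the range was -0.59 to 0.59. The proteasome regulatory subunits (PSMD, 12 of 13 lower, -0.59) had the lowest median, followed by the core subunits (PSMB, 8 of 10 lower, -0.39). The CHD chromatin remodellers had 9 of 10 lower with a median of -0.32, including CHD3 (8.89 in control, 9.09 in the wild-type line and 8.04 in the mutant line), and their median with wild-type JMJD3 was also -0.32. The MCM family, which includes the replicative helicase, had 10 of 11 lower with a median of -0.23. The EMC genes, which insert proteins in the endoplasmic reticulum membrane, had 8 of 10 lower with a median of -0.21, against 0.30 with wild-type, and EMC3 read 10.61, 11.03 and 9.76. EMC1 read 9.20, 9.68 and 8.26, but its difference was 0.15 without shared probe sets. The ALG genes, which build the sugar chain for N-glycosylation, had 9 of 11 lower with a median of -0.21. The small integral membrane proteins (SMIM) had 14 of 17 higher with a median of 0.59, and SMIM30 read 7.96, 8.10 and 9.14 (2.27-fold). The ATF family had 6 of 10 higher with a median of 0.39, and ATF6, a sensor of unfolded proteins, read 8.64, 8.26 and 9.78 but 0.75 with the median over its 4 probe sets. The OSBPL family had 9 of 10 higher, with OSBPL3 the exception. Shared letters do not always mean shared ancestry.

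Away from the histone cluster, neighbouring genes showed smaller common differences. The next highest run went from MTFR2 to ADGRG6, with 12 of 15 higher and a median of 0.59, and holds TNFAIP3, an NF-kB inhibitor (8.95 in control, 9.44 in the wild-type line and 9.81 in the mutant line), and HEBP2 (7.83, 8.66 and 9.06, with its other probe set under the floor). The run from TRA2A to HIBADH had 11 higher, 3 lower and a median of 0.56, with NFE2L3 at 5.06, 5.56 and 7.04 (at least 2.95-fold, but 0.78 with the median over its 2 probe sets) beside OSBPL3, the one gene of the run past 2-fold downward. The lowest runs were FDX2 to TMED1 (13 of 15 lower, -0.36), PPP3CC to LOXL2 (12 lower, -0.35) and ARFGAP2 to NUP160 (11 lower, -0.34), and the last includes PSMC3.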

How the data were processed

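Total RNA of 3 PANC-1 lines was read on 1 array each. The deposited values are log2 signals per probe set (2.42 to 14.94, 54613 probe sets). The submitters' processing notes name MAS5. The scale was taken as log2 from the range of the values. How the arrays were normalized against each other is not stated. The sorted control and mutant columns lay within 0.11 of each other, and 31.5% of probe sets held the same value in control and mutant. Such ties and any scaling can hide small differences. The number of arrays limits the precision.

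The platform annotation gave 1 symbol for 41091 probe sets, several for 1801 and none listed for 11721. The probe set brightest over the 3 arrays stood for its gene, and values were floored at the pooled median. Probe sets ending in _s_at or _x_at were treated as shared. Folds with one side at or under the floor are lower bounds. Gene lists (87) and the genes described were chosen with earlier results of these data known. The rule named the 25 largest differences on each side, the 10 brightest with one array at the floor, list members past 2-fold or otherwise up to 4 per list, and members of the extreme families and runs. PSMC4, PSMB10, GGPS1, ENO1, PGK1, ATF4, CHAC1, SLC7A5, DDIT3, FOS, EGR1, KLF4, MLX, MLXIP, HBB and HFE were added after their values were seen. Neighbours, promoters and names came from RefSeq tables of GRCh38.p14. No coordinates of the neighbours are printed. The 7 alternatives were quantile normalization, a shift of each array to one median, the floor at the 40th or the 60th percentile, an offset of that size replacing the floor, the median over all probe sets of a gene, and only unshared probe sets. The calculation was tested on simulated data, with changes planted in bright genes only and less noise than the gap between probe sets of one gene. That test does not cover dim genes or the error of single arrays. The tools were pandas 2.3.3 and numpy 2.4.6 in Python 3.11.15, with matplotlib 3.10.9 for plots.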

Additional observations from a re-analysis of the deposited data

Results flagged for a closer look

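Probe sets without a single gene symbol were outside every comparison above. Of 4965 such probe sets over the floor in control or mutant, 148 were 2-fold or more higher with mutant JMJD3 and 54 were lower. Among the 12707 measured genes 379 (2.98%) were higher and 68 (0.535%) lower, so the higher count is near the share of all measured genes. Probe set 1555623_at read 3.31 in control and 9.08 with mutant, a difference of at least 3.60 on the log2 scale after flooring. Probe set 206110_at read 6.82 and 9.20, and 203799_at read 6.48 and 8.79. With 1 array per line these have no replicate check.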

How the results depend on the processing

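No paired analysis was possible because each line had 1 array, and for the same reason no replicate could be left out. Across the 7 alternatives the number of genes 2-fold or more higher lay between 195 and 418 and the number lower between 39 and 85. The offset in place of the floor gave 202 higher and 41 lower, and taking the median over probe sets gave 195 and 39. Of 602 list medians under the alternatives, 549 stayed within 0.1 or 1.5 times of the value given and 53 did not. Of 86 lists 14 changed sign under an alternative, 2 of them with a median of at least 0.2 in size, and so did 18 of 417 named genes, 8 of them with a difference of at least 0.5. The cause was not tested. With the median over probe sets, the medians were 0.17 for ATF4 targets, 0.00 for chemokines, 0.00 for mesenchymal genes, 0.13 for ductal transcription factors, 0.07 for FOXO targets, 0.24 for Krüppel-like factors and 0.71 for H2A histones. Without shared probe sets they were 0.18 for MondoA targets, 0.025 for hypoxia targets, 0.25 for Krüppel-like factors, 0.12 for H2B histones and -0.29 for the proteasome, and the fatty acid list (0.01), tubulins (0.05), spectrins (0.07), the citric acid cycle (0.07), metallothioneins (-0.16), HSPB8 (-0.11), KLF2 (-0.02), EMC1 (0.15), KMT5B (0.20), NSD2 (0.29), PSMD11 (0.12), TM9SF3 (0.98) and TUBB (0.11) changed sign, as did hypoxia targets and mitosis genes (0.02). With the floor at the 40th percentile they were 0.30 for chemokines, 0.26 for ductal factors and 0.25 for Krüppel-like factors, and with the offset 0.21 for H3 and H4 histones. Dim signal limits genes near the floor most, since 53 of the 379 higher genes have bounds only.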

Other observations

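Signalling targets outside the groups above differed in single members. Of 12 measured BMP targets 7 were higher and 3 lower with mutant JMJD3, against 45.9% and 41.2% of all measured genes, with a median of 0.12. ID2, an inhibitor of DNA binding, read 8.09 in control, 9.90 in the wild-type line and 9.67 in the mutant line, and SMAD9 read 5.97, 5.14 and 7.47. For ID2 both JMJD3 arrays were above control, and for SMAD9 only the mutant array was, although the median over both SMAD9 probe sets was 0.75. The EGFR feedback inhibitor ERRFI1 read 9.47, 9.81 and 10.85 from its only probe set. CD44, a hyaluronan receptor, read 9.90, 10.91 and 11.23, and its median over 13 probe sets was 0.62. Complement C3 read 7.57, 9.30 and 9.31, so that the JMJD3 arrays differed from each other by 0.01, while C5 read 7.29, 4.52 and 7.96. Of 20 p53 targets and CDK inhibitors 10 were higher and 9 lower, near the shares of all measured genes (45.9% and 41.2%). TP53I3, an oxidoreductase induced by p53, read 9.92, 10.52 and 8.83. Among aldehyde dehydrogenases ALDH1A3 was higher (7.11, 7.46 and 8.33) and ALDH3A1 lower (8.58, 8.09 and 7.36). The other probe set of ALDH1A3 read 6.38, 5.71 and 6.38, and its median over both was 0.61.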
